A study of Homo sapiens with 3 samples.

Results

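Deletions of 3 to 29 bases at 5 promoters whose edited site overlaps annotated coding sequence were compared by reading frame, a length divisible by 3 (called in-frame here) against every other length. The members were all edited RNA 5′ ends of C19orf43, HIST1H1D, TXNRD2, NDUFV3 and TMED9 with such a length: 25515 ends over 736 distinct deletions, of 82114 edited ends over 2286 distinct deletions in the whole series. Of the 736, 284 were in-frame (16947 ends) and 452 were not (8568 ends). The members were chosen by the measured deletion length and by target, so the numbers of ends and deletions by length are given as a description, with no test.

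The cells were HEK293T, a human embryonic kidney line. They received Cas9 protein complexed with a single guide for each target, in repeated transfections, and RNA came from the mixed population, not from clones. Capped RNA 5′ ends were read with gene-specific primers, so that 1 read gives both the start of the RNA and the deletion it carries. The labels list 2 libraries, which the deposited list pools without a column that separates them; unedited ends come from the same transfected cells and no untreated library was used here. There is therefore no replicate error. Wilson 95% intervals are given for shares and Newcombe 95% intervals for differences; they cover counting only and are too narrow if lines are PCR copies, which the sources used here do not settle. The 5 targets had 137 (TXNRD2) to 19497 (C19orf43) edited and 35 to 29727 unedited ends. The list holds reads of 13 targets only, so the cell line was not checked against marker genes. No DNA counts were used, so fewer cells with an allele and less RNA per allele cannot be told apart.

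As background, ribosomes read coding RNA in codons. A deletion that leaves the codon register intact removes or alters a few residues, while any other length shifts the frame and usually leads to an early stop codon. RNA with an early stop upstream of an exon junction is a known substrate of nonsense-mediated decay, a surveillance pathway tied to translation. Cas9 cuts are mended by end joining, and short repeats on both sides of a cut, called microhomology, favour deletions that join them, whatever the frame.

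The alleles that carry most of the ends are shown on the RNA strand, with the deleted bases in capitals at the edges the authors gave (hg38, sequence from GENCODE release 29 transcripts). For each target the 2 in-frame and the 2 other deletions with the most ends are given. In C19orf43, now named TRIR, an RNA-binding nuclease gene, the window is the start of the coding sequence in exon 1 (chr19:12734613-12734657, minus strand).
C19orf43 in-frame, 18 bases, 1516 ends: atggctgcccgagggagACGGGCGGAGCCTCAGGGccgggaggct
C19orf43 in-frame, 18 bases, 809 ends: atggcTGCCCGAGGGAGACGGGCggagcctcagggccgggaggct
C19orf43 other, 20 bases, 835 ends: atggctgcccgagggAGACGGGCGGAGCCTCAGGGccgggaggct
C19orf43 other, 20 bases, 623 ends: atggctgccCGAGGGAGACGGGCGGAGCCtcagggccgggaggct
The leading 18-base and 20-base deletions of this target end at the same base and differ by 2 bases at the other edge. In the reading frame of the reference the first removes 6 codons and leaves 170 before the annotated stop, and the second leads to a stop after 22 codons.

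HIST1H1D encodes a linker histone and has a single exon; the window is coding sequence at chr6:26234874-26234903, minus strand.
HIST1H1D in-frame, 6 bases, 538 ends: attcctgcaCCCGCAgaaaaaacacctgtg
HIST1H1D in-frame, 6 bases, 279 ends: attccTGCACCcgcagaaaaaacacctgtg
HIST1H1D other, 7 bases, 10 ends: attcctgcacCCGCAGAaaaaacacctgtg
HIST1H1D other, 7 bases, 9 ends: attccTGCACCCgcagaaaaaacacctgtg
The second 6-base and the second 7-base deletion share an edge and differ by 1 base, with 279 ends against 9. TXNRD2 encodes the mitochondrial thioredoxin reductase, a selenoprotein; its window is coding sequence in exon 1 of 17 (chr22:19941744-19941768, minus strand).
TXNRD2 in-frame, 12 bases, 17 ends: agggcgCTTCCGGTGGCGgacgcag
TXNRD2 in-frame, 6 bases, 5 ends: agggcgCTTCCGgtggcggacgcag
TXNRD2 other, 16 bases, 4 ends: agggcgcTTCCGGTGGCGGACGCag
TXNRD2 other, 16 bases, 3 ends: aggGCGCTTCCGGTGGCGGacgcag
These 4 deletions rest on few ends, and so does every value of this target.

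At the other 2 targets the edited site lies over the start codon, so that a length divisible by 3 does not by itself mean an intact reading frame. NDUFV3 encodes an accessory subunit of respiratory complex I (chr21:42893320-42893348, plus strand, exon 1 of 4), and the first base of its start codon is 42893334.
NDUFV3 in-frame, 15 bases, 696 ends: ccGCTGTCACCGCCATGgctgccccgtgt
NDUFV3 in-frame, 9 bases, 416 ends: ccgctgtcaccGCCATGGCTgccccgtgt
NDUFV3 other, 14 bases, 342 ends: ccgctgtcaCCGCCATGGCTGCCccgtgt
NDUFV3 other, 4 bases, 99 ends: ccgctgtcaccgccaTGGCtgccccgtgt
The 3 most frequent of these remove the start codon, while the 4-base deletion rebuilds it from bases behind the cut. TMED9 encodes a p24-family protein that sorts cargo between the endoplasmic reticulum and the Golgi (chr5:177592204-177592233, plus strand, exon 1 of 5), with the first base of its start codon at 177592215.
TMED9 in-frame, 6 bases, 2298 ends: ggtggagcaagaTGGCTGtggagctgggcg
TMED9 in-frame, 3 bases, 554 ends: ggtggagcaagatgGCTgtggagctgggcg
TMED9 other, 4 bases, 627 ends: ggtggagcaagaTGGCtgtggagctgggcg
TMED9 other, 16 bases, 503 ends: gGTGGAGCAAGATGGCTgtggagctgggcg
The 6-base deletion is listed over the start codon but leaves a TG behind it, so the product still begins with ATG and has 233 codons before the annotated stop. The 16-base deletion removes the start codon.

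In-frame lengths held most of the member RNA ends at all 5 targets when each line was counted. They made up 93.1% of the member ends at HIST1H1D (1224 of 1315, 95% interval 91.6 to 94.3%), 71.8% at TXNRD2 (61 of 85, 61.4 to 80.2%) and 68.1% at C19orf43 (9758 of 14327, 67.3 to 68.9%). TMED9 had 61.2% (3667 of 5991, 59.97 to 62.4%) and NDUFV3 58.9% (2237 of 3797, 57.3 to 60.5%). Members were only 43.6% of all edited ends at TMED9, where deletions of 1 or 2 bases held 7693 ends. When each combination of start position and deletion was counted once, which sets repeated lines aside, the share was 54.4% at C19orf43, 63.1% at HIST1H1D and 66.1% at TXNRD2, but 44.6% at NDUFV3 and 35.6% at TMED9. Of the 27 lengths from 3 to 29, 9 are divisible by 3, which is 33.3%.

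The in-frame share was lower among distinct deletions than among ends at all 5 targets. In-frame deletions were 37.6% of 306 at C19orf43 (32.3 to 43.1%), 34.8% of 201 at NDUFV3 (28.6 to 41.6%) and 31.9% of 116 at TMED9 (24.1 to 40.8%). HIST1H1D had 52.1% of 73 (40.8 to 63.1%) and TXNRD2 60.0% of 40 (44.6 to 73.7%).

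**Figure D1:**
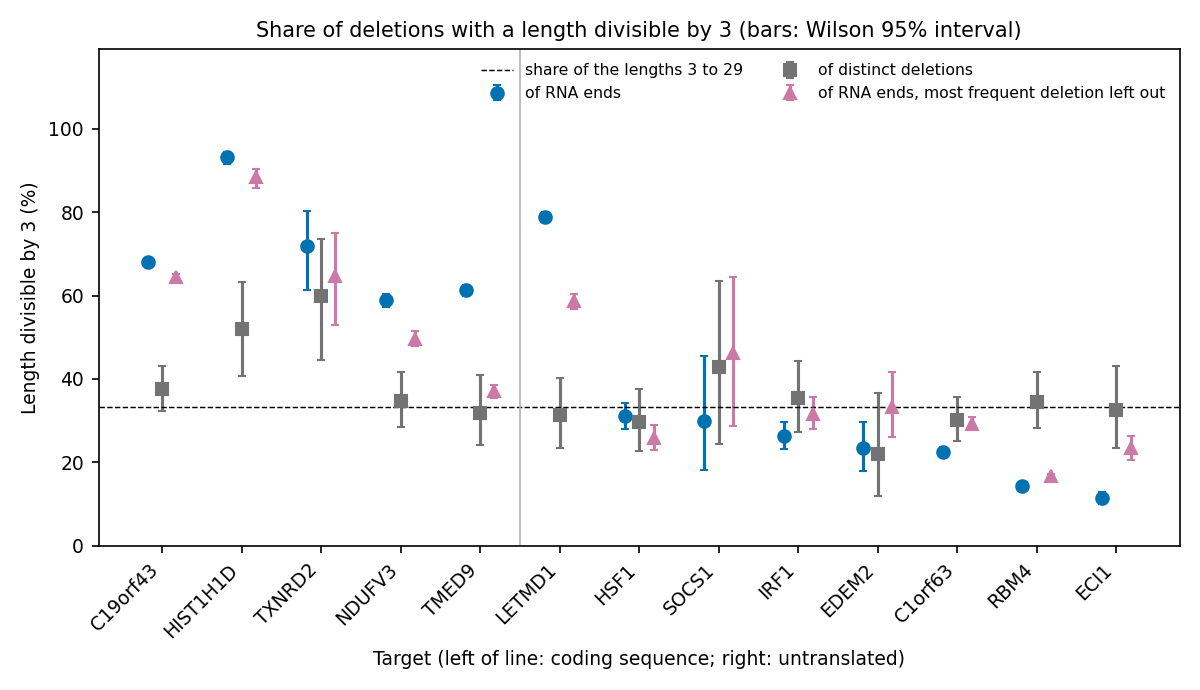
Percent of deletions of 3 to 29 bases with a length divisible by 3 at the 13 targets: circles, of RNA ends; squares, of distinct deletions; triangles, of RNA ends without the most frequent deletion of the target. Bars are Wilson 95% intervals and the dashed line is the 33.3% of lengths that 3 divides. The circles of the 5 coding targets lie between 58.9% and 93.1%. Among the other 8 targets, called untranslated, LETMD1 alone lies above 50%.

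The other 8 targets are called untranslated here, but their deletions were not placed against annotated coding sequence. The same share was computed there. It ran from 11.4% at ECI1 to 78.9% at LETMD1, with a median of 24.8%, and exceeded the 33.3% of lengths at 1 of 8 against 5 of 5 coding targets. LETMD1 lay above 4 of the 5 coding targets, and 49.1% of its member ends belonged to a single 9-base deletion; without it the share was 58.6%. With 1 pooled list per target, the difference between the kinds of site was not tested. The distinct deletions were in-frame in 22.0% (EDEM2) to 42.9% (SOCS1) at these 8 targets.

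At C19orf43 the in-frame excess recurred along the range of lengths. Each in-frame length was set against the lengths 1 base shorter and 1 base longer, for in-frame lengths 6 to 27. At C19orf43, 1570 ends had 9-base deletions against 432 with 8 and 355 with 10; 1332 had 12-base deletions against 340 and 66; and 1214 had 15-base deletions against 284 and 175. In-frame lengths exceeded both neighbours in 7 of 8 comparisons there, the exception being 21 bases with 39 ends beside 1802 at 20 bases. Summed, in-frame lengths had 8739 ends against a neighbour mean of 2211, a log2 ratio of 1.98.

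HIST1H1D had higher in-frame lengths in 6 of 6 comparisons that held any end, with 1204 ends against a neighbour mean of 44 (log2 ratio 4.77). The 6-base deletions, 831 ends, led, but the 15-base deletions (109 ends against 3 at 14 and 3 at 16) and the 21-base deletions (123 against 6 and 1) exceeded their neighbours as well. Each of these 2 lengths rests on a single deletion with 4 bases of microhomology, which held 98 of the 109 and all of the 123 ends. TXNRD2 had 7 of 8 on few ends (53 against a neighbour mean of 12, log2 ratio 2.14). The pattern was less regular at NDUFV3, 4 of 8 comparisons (log2 ratio 1.61), and at TMED9, 2 of 7 (2.04). Among the untranslated targets the log2 ratio was above 0 at 1 of 8, LETMD1 (2.93), and the lowest was −2.10 at RBM4; at most 3 comparisons (SOCS1) had the in-frame length highest.

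**Figure D2:**
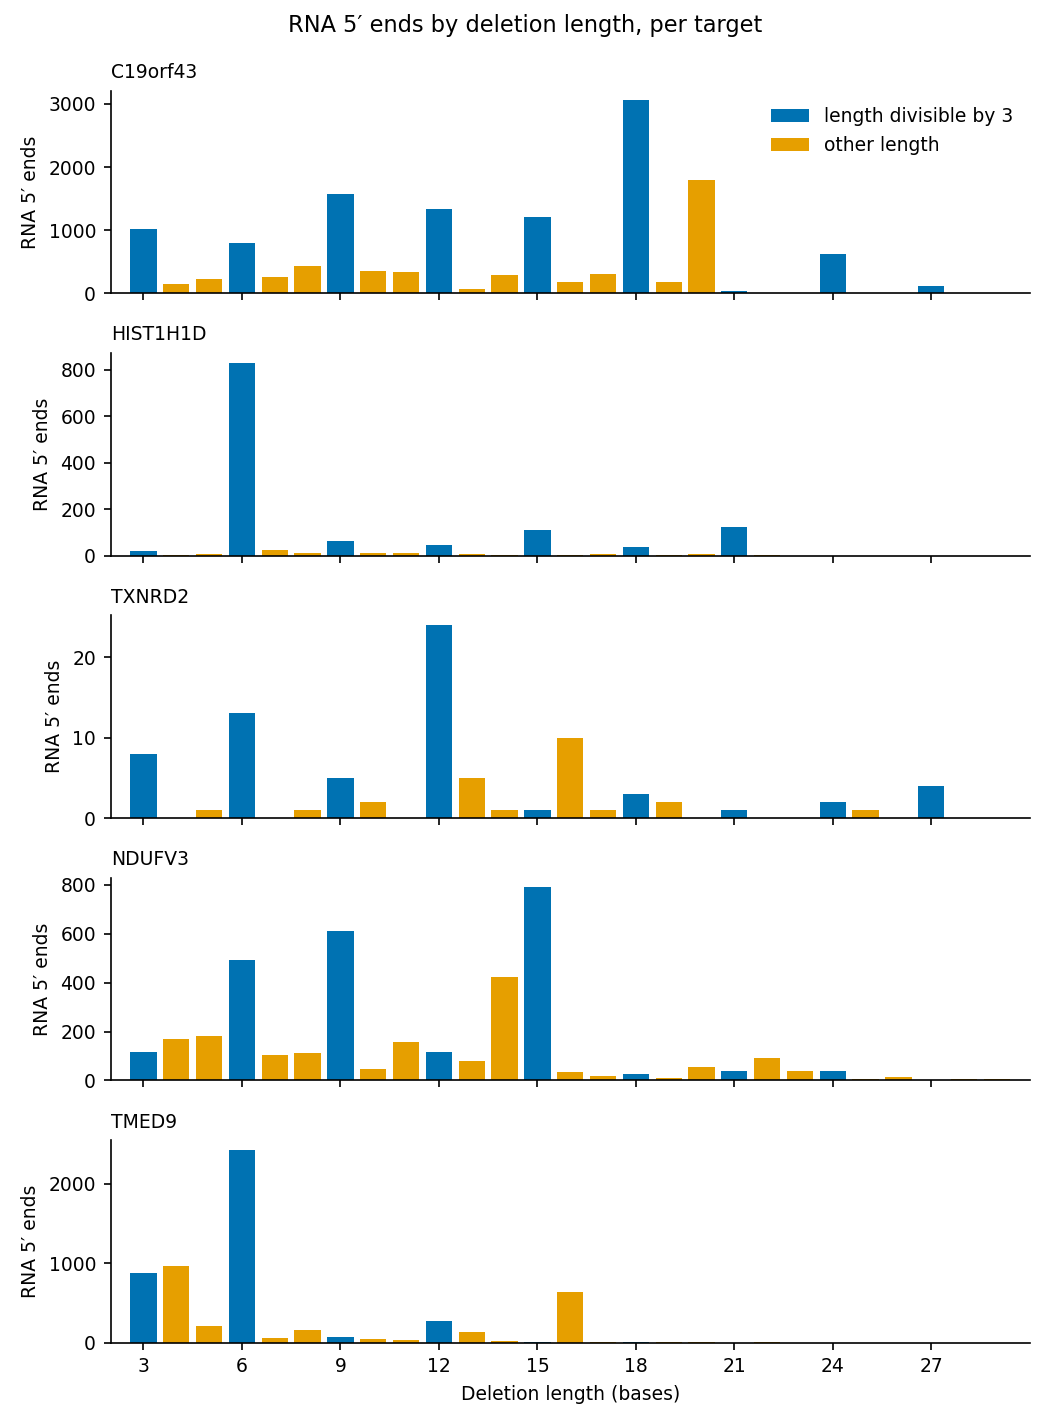
RNA 5′ ends (vertical axis, linear, scaled per panel) by deletion length in bases at the 5 targets, with lengths divisible by 3 in blue and other lengths in orange. C19orf43 shows a tall bar at 3, 6, 9, 12, 15, 18 and 24 bases, and 20 bases is the only tall bar of another length; at TMED9 the 2425 ends at 6 bases stand out.

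Mean ends per distinct deletion were higher in the in-frame class at all 5 targets, though not at NDUFV3 among deletions wholly inside coding sequence at the edges given, where the ratio was 0.975 in place of 2.68. The mean at C19orf43 was 84.9 ends per in-frame deletion and 23.9 per other deletion, a ratio of 3.55, and the medians were 15 and 5. There, 62.6% of the in-frame deletions had at least 10 ends against 30.4% of the others, and 6.96% against 25.7% were seen in a single end. For lengths of 3 to 18 the in-frame deletions averaged at least 60.5 ends at each length, while the other lengths from 4 to 19 averaged at most 32.3; 20-base deletions averaged 81.9. Of its 10 most frequent deletions 8 were in-frame.

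At HIST1H1D the means were 32.2 and 2.60 (ratio 12.4) but the medians were close, 2.5 and 2, since 7 in-frame deletions and 1 other deletion had 10 or more ends. Of its 10 most frequent deletions 9 were in-frame. TXNRD2 had means of 2.54 and 1.50, with medians of 2 and 1. NDUFV3 (means 32.0 and 11.9) and TMED9 (99.1 and 29.4) had medians of 4 and 3 in both, so a typical in-frame deletion of these targets had nearly as few ends as a typical other deletion. Their top 10 held 6 and 4 in-frame deletions. At the 8 untranslated targets the ratio of means ran from 0.267 (ECI1) to 8.22 (LETMD1), with a median of 0.66, and exceeded 1 at 3 of 8. Their medians ran from 1 to 12 ends for in-frame and from 1 to 10 for other deletions, both highest at RBM4.

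**Figure D3:**
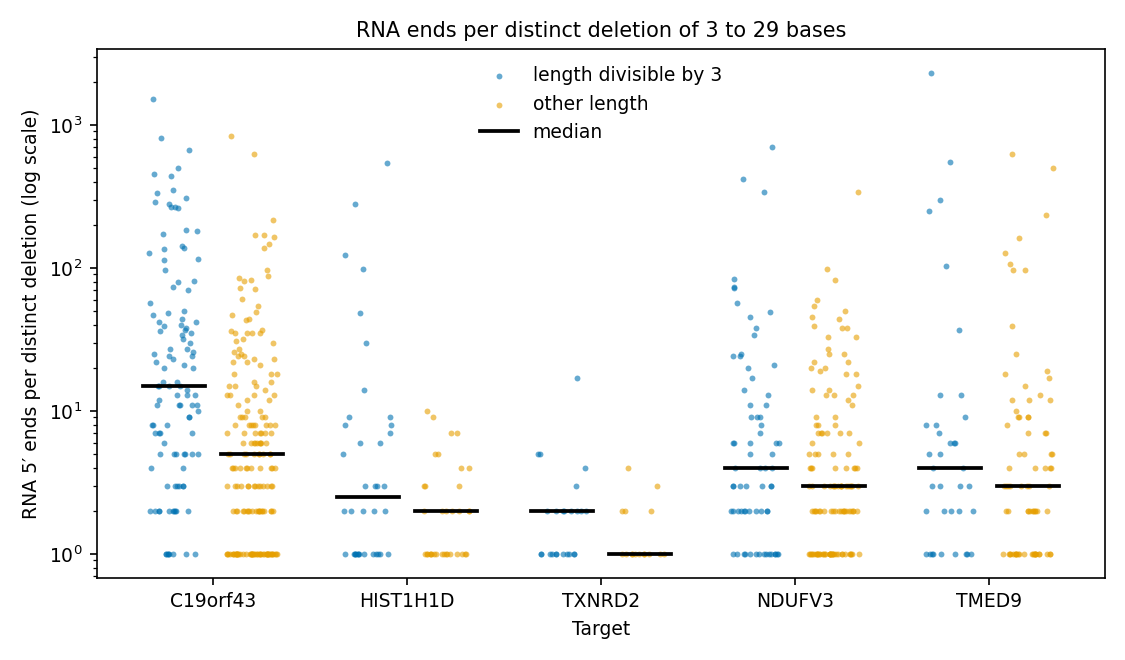
RNA 5′ ends per distinct deletion (logarithmic axis, 1 point per deletion, black line at the median) for in-frame and other lengths at the 5 targets. The in-frame points of C19orf43 have the higher median (15 and 5) with wide overlap, while at HIST1H1D, NDUFV3 and TMED9 the medians are close and a few in-frame deletions reach far above the rest.

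A single deletion decided the value at TMED9. Its 6-base deletion held 38.4% of the member ends, and without it the in-frame share was 37.1% (35.5 to 38.6%) and the log2 ratio to neighbouring lengths was −0.47. At NDUFV3 the share without the 15-base deletion was 49.7% (47.9 to 51.5%) and the log2 ratio 1.04. At C19orf43 (64.3%, log2 ratio 1.71), HIST1H1D (88.3%, 3.92) and TXNRD2 (64.7%, 1.58) in-frame ends stayed the larger class.

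Microhomology differed between the classes and went in opposite directions at C19orf43 and HIST1H1D. It was counted as the number of bases by which a deletion can be moved without changing its product, and 2 or more were taken as microhomology. At C19orf43 such deletions made up 26.0% of the in-frame ends but 58.2% of the other ends, among them the 20-base deletions shown above. Without them the in-frame share was 79.1%, with medians of 15 ends over 95 in-frame and 4 over 161 other deletions, and the log2 ratio to neighbouring lengths was 2.75.

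At HIST1H1D, 85.9% of the in-frame ends but 18.7% of the other ends had microhomology. Without it the in-frame share was 70.0% and the log2 ratio 2.11. At NDUFV3 it held 75.7% of in-frame and 52.7% of other ends, and without it the share was 42.4% and the log2 ratio 0.39. TMED9 had 69.9% and 62.7%, with a share of 56.0% and a log2 ratio of −0.23 without it. TXNRD2 had 55.7% and 70.8%, and 79.4% without. The part of microhomology in the in-frame share beyond these values was not tested.

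The repeats available in the reference sequence were counted by frame. Of all deletions of 3 to 29 bases that remove the most deleted base of a target, equivalent ones counted once, those with 2 or more bases of microhomology were in-frame in 10 of 40 at C19orf43 (25.0%), 7 of 38 at TMED9 (18.4%), 9 of 34 at TXNRD2 (26.5%), 14 of 36 at NDUFV3 (38.9%) and 10 of 20 at HIST1H1D (50.0%). With 3 or more bases it was 3 of 15 at C19orf43 and 3 of 5 at HIST1H1D. With 4 or more it was 1 of 8 at C19orf43, 0 of 4 at TMED9, 2 of 3 at TXNRD2, 1 of 4 at NDUFV3 and 2 of 2 at HIST1H1D. Over all these possible deletions, with or without microhomology, the in-frame share was 32.3% at C19orf43, 32.4% at TMED9, 32.4% at TXNRD2, 31.1% at NDUFV3 and 29.6% at HIST1H1D. The counts are small, and whether they differ from these shares was not tested.

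Where a deletion lies relative to the start codon set what its length can mean. All members of HIST1H1D and TXNRD2 lay behind the start codon, as did 98.3% of the member ends at C19orf43. At TMED9 73.8% did, when a deletion was counted there if any equivalent placement was. At NDUFV3 only 5.74% of the ends did, and 91.0% came from deletions that remove the start codon.

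The in-frame share was not alike in these places. At C19orf43 it was 68.98% behind the start codon (68.2 to 69.7%) and 17.6% among the 244 ends of 26 deletions that remove it (13.4 to 22.9%). The 244 ends come mainly from deletions of 16 to 20 bases that share the edge 12734640. These held 72 ends at 16 bases, 26 at 17, 22 at 18, 24 at 19 and 35 at 20. Of these lengths only 18 is divisible by 3, so the 17.6% depends on which lengths reach the start codon. Whether the C19orf43 share differs by place at equal lengths was not tested. At TMED9 the in-frame share was 72.2% behind (70.9 to 73.5%) and 30.1% among 1563 ends without the start codon (27.9 to 32.5%). Single deletions weigh heavily in both TMED9 values. The 6-base deletion held 2298 of the 4423 ends behind the start codon. The 16-base deletion of the other class held 503 of the 1563 ends without it. Shares without these deletions were not computed by place. NDUFV3 had the reverse order by ends. Its share was 24.3% behind the start codon (53 of 218 ends, 19.1 to 30.4%), 60.8% where the codon was removed (59.2 to 62.4%) and 66.4% in the leader before it (83 of 125 ends, 57.7 to 74.1%). In the leader no codon is interrupted, so length has no bearing on the frame there. Single deletions weigh heavily in these NDUFV3 values. A 6-base deletion held 73 of the 83 in-frame leader ends. The 4-base deletion shown above held 99 of the 165 other-length ends behind the start codon. Of distinct NDUFV3 deletions, 40.9% were in-frame behind the start codon, 34.4% where it was removed and 31.8% in the leader.

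**Figure D4:**
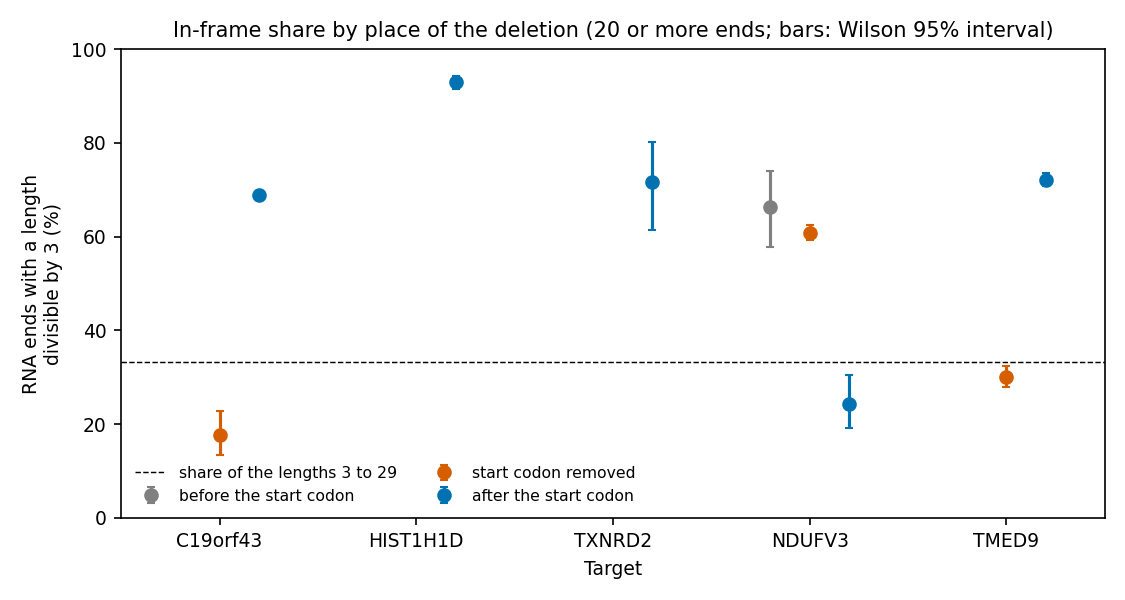
Percent of RNA ends with a length divisible by 3, by the place of the deletion at each target: before the start codon (grey), start codon removed (orange) and behind it (blue), for places with at least 20 ends; bars are Wilson 95% intervals and the dashed line is 33.3%. At C19orf43 and TMED9 the point behind the start codon is higher (68.98% and 72.2% against 17.6% and 30.1%), and at NDUFV3 it is lower (24.3% against 60.8%). Single deletions hold many of the ends at TMED9 and NDUFV3. The orange point of C19orf43 rests mainly on deletions of 16 to 20 bases, of which only 18 is divisible by 3. The dashed line counts all lengths from 3 to 29, so it is no reference for that point.

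The reading frame of each product was worked out on the reference transcript. Behind the start codon, each of the 171 other-length deletions of C19orf43 led to a stop after 19 to 54 codons in place of 176, at least 254 bases before the last exon junction. In TMED9 the 25 such deletions stopped after 12 to 19 codons in place of 235, and in NDUFV3 the 13 after 10 to 39 in place of 473. TXNRD2 had 16, which stopped after 64 to 98 codons. Its unedited frame reads 499 codons to the in-frame TGA that encodes selenocysteine. In HIST1H1D all 35 other-length deletions stopped after 12 to 40 codons in place of 221, and the gene has no exon junction.

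Most deletions that remove the start codon leave the next ATG of the transcript as the first in the RNA; in 1 at NDUFV3 and 4 at TMED9 the first ATG did not read to the annotated stop. The next ATG lies in the annotated frame at codon 73 in C19orf43, codon 18 in NDUFV3 and codon 22 in TMED9. Counted by product in place of length, the first ATG led to the annotated stop in 100% of the in-frame and 89.3% of the other-length ends at NDUFV3, in 99.9% and 46.5% at TMED9, and in 100% and 4.4% at C19orf43. The first ATG was sought once per deletion, from the most used unedited start or from the deletion edge where that lies further upstream. The starts of the single ends were not used, so an ATG farther upstream was not looked for. Whether ribosomes use these ATGs was not measured.

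The other lengths leave a remainder of 1 or 2 on division by 3, and these had unequal shares at 4 targets and close shares at HIST1H1D. Not all of them shift a frame. The start codon was removed in 86.7% of the other-length ends at NDUFV3 and 47.0% at TMED9. Lengths that leave a remainder of 1 on division by 3 made up 8.22% and a remainder of 2 made up 23.7% of the member ends at C19orf43, where they stopped after 46 to 54 and 19 to 27 codons. At TMED9 it was 31.3% and 7.46%, and at NDUFV3 14.5% and 26.6%. TXNRD2 had 23.5% and 4.71% (20 and 4 ends), and HIST1H1D 3.65% and 3.27% (48 and 43 ends). Single deletions weigh in these shares. At C19orf43 the 20-base deletions shown above held 835 and 623 of the 3392 ends with a remainder of 2. At TMED9 the 4-base and 16-base deletions shown above held 627 and 503 of the 1877 ends with a remainder of 1.

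Start choice is a readout that the member rule does not use. Ends with at least 8 bases between the start and the deletion were compared, and the main start of a target is its most used position among unedited RNAs. At C19orf43 the main start (12734742) held 34.1% of the in-frame ends (3328 of 9753) and 23.8% of the other ends (1086 of 4568), a difference of 10.3 percentage points (95% interval 8.78 to 11.9). Unedited ends at positions at least 8 bases from the same deletions gave 26.3% and 26.6%, beside 26.0% of all unedited ends. This matching only leaves out starts close to a deletion. It cannot show whether the place or length of a deletion otherwise goes with start choice. The in-frame ends were above their matched unedited share and the other ends were below theirs.

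The main start of C19orf43 held 26.0% of its unedited ends and a start near the start codon, 12734663, held 24.9%. Over 267 deletions that lie at least 8 bases from each of the 3 most used starts, in-frame lengths made up 75.2% of 3910 ends from the main start, 85 bases before the start codon (73.8 to 76.5%). They made up 62.2% of 3148 ends from position 12734663 (60.5 to 63.9%), 6 bases before it, and 61.0% of 164 ends from position 12734660 (53.3 to 68.1%), 3 bases before it. Single deletions varied widely. With 20 or more ends at the first 2 starts, the main start had 12.5 to 93.1% of the ends in 36 in-frame deletions (median 54.4%) and 13.04 to 97.6% in 20 others (median 42.3%), so the classes overlap nearly throughout.

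**Figure D5:**
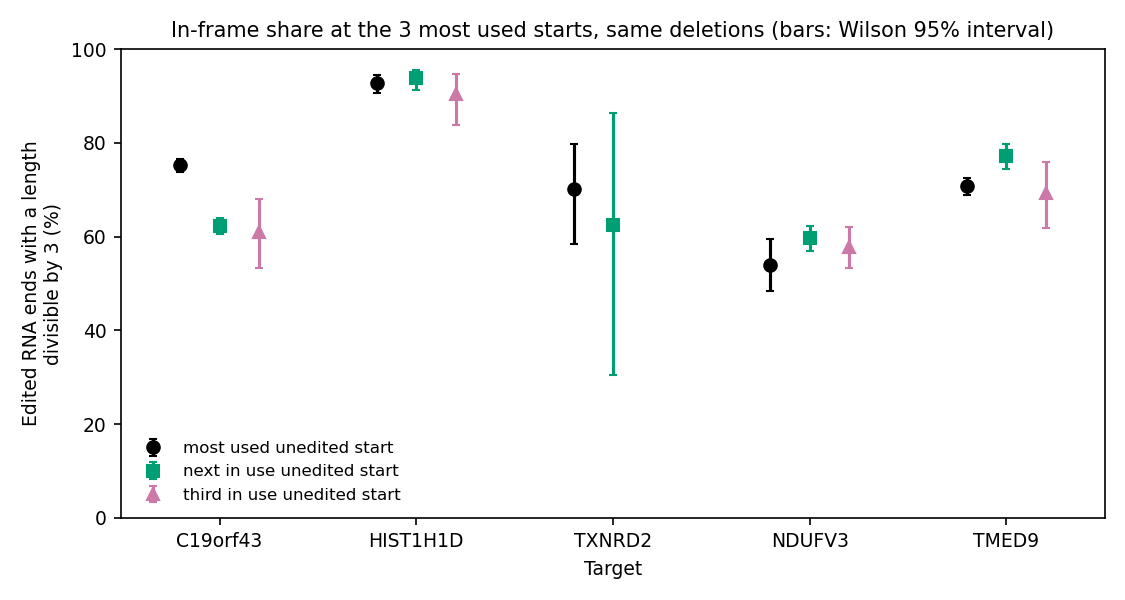
Percent of edited RNA ends with a length divisible by 3 at the 3 most used unedited starts of each target, over deletions at least 8 bases from all 3 (starts with at least 5 edited ends; bars are Wilson 95% intervals). C19orf43 falls from 75.2% to 62.2% between its first 2 starts, TMED9 rises from 70.8% to 77.3%, and the intervals of HIST1H1D overlap.

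At HIST1H1D the 3 most used starts lie within 3 bases and had in-frame shares of 92.8%, 93.8% and 90.5%, with overlapping intervals. Its main start held 52.9% of the in-frame and 54.9% of the other ends, a difference of −2.09 points (−12.3 to 8.50). At NDUFV3 the main-start difference was −1.62 points (7.21% and 8.83%, interval −3.44 to 0.124), and at TXNRD2 it was −6.28 points (−21.9 to 14.8); these intervals include 0 and leave room for differences of several points. With at least 12 retained bases the value at NDUFV3 was −4.04. That setting drops the main-start ends of the leading 15-base deletion, which begins fewer than 12 bases behind the main start. Its ends from starts farther upstream stay in, so the change follows in part from the filter. The matched unedited shares at NDUFV3 were 24.7% and 24.0%, so both classes were well below theirs. At TMED9 the main start held 42.97% of the in-frame and 38.8% of the other ends, 4.13 points more (1.55 to 6.68). This value was not stable: it was 10.8 with at least 12 retained bases and 15.4 without the leading deletion of each class. With at least 20 retained bases it was 0.288, which the setting largely fixes. Deletions that remove base 177592218 hold 90.6% of the TMED9 member ends, and none of their main-start ends can pass it. The matched unedited shares there were 78.8% and 59.1%, a difference of 19.8 points that comes from where the deletions lie, so the in-frame ends were farther below theirs. Over 59 TMED9 deletions at least 8 bases from its 3 most used starts, in-frame lengths made up 70.8% of 2203 ends from the main start (68.8 to 72.6%). They made up 77.3% of 960 ends from the next start in use (74.5 to 79.8%), the opposite order to C19orf43.

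Lengths just outside the range and longer deletions were not used to choose the members. At the lower edge, deletions of 2 and 3 bases had 190 and 1019 ends at C19orf43, 20 and 20 at HIST1H1D, 330 and 116 at NDUFV3, 1195 and 879 at TMED9, and 6 and 8 at TXNRD2. Deletions of 1 base had 162 ends at C19orf43, 23 at HIST1H1D, 453 at NDUFV3, 6498 at TMED9 and 2 at TXNRD2. The 6498 at TMED9 exceed its 5991 member ends. At the upper edge, deletions of 29 and 30 bases had 4 and 251 ends at C19orf43, 0 and 16 at HIST1H1D, 6 and 3 at NDUFV3, 0 and 2 at TMED9, and none at TXNRD2. Among deletions of 30 or more bases, in-frame lengths made up 75.8% of 4818 ends at C19orf43 (74.6 to 77.03%) and 41.4% of its 133 distinct deletions of that size. HIST1H1D had 23 of 25 ends (92.0%, 75.03 to 97.8%). The share was 41.6% at NDUFV3 (52 of 125), 36.4% at TXNRD2 (16 of 44, 23.8 to 51.1%) and 16.1% at TMED9 (9 of 56). At the untranslated targets with such ends it ran from 0% (EDEM2, 2 ends) to 56.5% (SOCS1, 23 ends).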

How the data were processed

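The authors deposited 1 list with 131949 lines, each an RNA 5′ end with its class, position, deletion edges and deletion length, per the file headers. STAR and hg38 are named in the submitters' processing notes; their versions, settings and whether the random bases of the adapter were used to collapse copies were not stated in the sources used here. The list pools both libraries, so no replicate model could be fitted. Deletion lengths and positions are used as the authors gave them. Positions were taken as counted from 0 and are printed from 1. Transcripts, coding sequence and start codons came from GENCODE release 29 (hg38). Targets, members and measures were chosen with earlier results of these data known. Named deletions are the 2 in-frame and the 2 other deletions with the most ends per target. Wilson intervals (scipy 1.17.1) and Newcombe intervals (statsmodels 0.14.6) were used in Python 3.11.15; the functions were checked on simulated data. The matched unedited share is the unedited main-start share at positions at least 8 bases from each deletion, weighted by its edited ends and averaged over deletions with at least 10 such unedited ends. Alternatives covered the leading allele, low counts, place, equivalent edges, length range, distance and microhomology. Reporter data were not used here.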

Additional observations from a re-analysis of the deposited data

How the results depend on the processing

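No paired analysis was possible because the list does not separate the libraries, and leaving out each library was not run for the same reason. The in-frame share of ends stayed above 33.3% at all 5 targets in each setting except behind the start codon at NDUFV3 and with 30 or more bases at TMED9. Without the most frequent deletion it was 64.3% at C19orf43, 88.3% at HIST1H1D, 49.7% at NDUFV3 and 37.1% at TMED9; the ratio of ends per deletion was then 3.02, 7.13, 1.88 and 1.29, and the log2 ratio to neighbouring lengths 1.71, 3.92, 1.04 and, reversed, −0.47. With at least 10 ends per deletion the share was 69.9% at C19orf43, 99.1% at HIST1H1D, 100% at TXNRD2 (1 deletion) and 61.95% at NDUFV3; of distinct deletions it was 55.4%, 87.5% and 100% at the first 3, and the ratio of ends per deletion was 1.87 at C19orf43, 16.1 at HIST1H1D, 2.40 at NDUFV3 and 3.94 at TMED9. Wholly inside coding sequence at the edges given, the share was 34.5% at NDUFV3 and 74.1% at TMED9, with ratios of ends per deletion of 0.975 (reversed) and 4.47. Behind the start codon in any placement, chosen after seeing the data, it was 68.98% at C19orf43, 24.3% at NDUFV3 and 72.2% at TMED9. Without microhomology it was 79.1% at C19orf43, 70.0% at HIST1H1D, 42.4% at NDUFV3 and 56.0% at TMED9; the ratio of ends per deletion (6.40, 2.41, 1.51 and 2.63) and the log2 ratio (2.75, 2.11, 0.39 and, reversed, −0.23) in this setting were added after seeing the data. With lengths of 3 to 14 the share was 69.2% at C19orf43, 83.3% at TXNRD2, 51.1% at NDUFV3 and 68.8% at TMED9. When each position and deletion counted once it was 54.4% at C19orf43, 63.1% at HIST1H1D, 44.6% at NDUFV3 and 35.6% at TMED9. With lengths of 30 or more, added later, it was 75.8% at C19orf43, 36.4% at TXNRD2, 41.6% at NDUFV3 and 16.1% at TMED9. Length comparisons for 6 to 15 only gave log2 ratios of 2.20 at C19orf43 and 1.81 at NDUFV3. The main-start difference was 8.19 points at C19orf43 and 15.4 at TMED9 without the leading deletion of each class, −4.04 at NDUFV3 and 10.8 at TMED9 with at least 12 retained bases, and 0.288 at TMED9 with at least 20. Settings with more retained bases drop the main-start ends of deletions near the main start, so these values follow in part from the filter. The cause of these changes was not tested beyond the ends each setting leaves out. Merging equivalent deletions moved no value beyond its interval. Values of TXNRD2 rest on 85 ends and are limited by that number.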
